A study of Gallus gallus with 4 samples.

Results

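The genes described here are genes of retinal ganglion cells and their axons, namely NEFL, NEFM, SNCG, THY1, RBPMS2, GAP43, STMN2, POU4F1, POU4F3 and ELAVL4, on 4 Affymetrix chicken arrays of the combined retina, retinal pigment epithelium (RPE) and choroid. They were chosen by name from this list, and every probe set that the platform's annotation gives to exactly 1 of them was taken. Of the 10 listed genes, 8 had a probe set, with 12 probe sets in all, out of 13051 genes and 27178 probe sets with 1 gene. No probe set was annotated to POU4F1 or POU4F3, and these genes were not analysed here.

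Each array measured RNA pooled from the right eyes of 5 male Leghorn/New Hampshire chicks, and there was 1 array per group. Chicks of the control array wore no occluder and were 11 days old after hatching. The other chicks were form-deprived, that is, their right eye was covered by an occluder that blurs form vision and leads to form deprivation myopia (FDM). FDM chicks were taken at 0 hr of recovery, at 11 days of age. Chicks in recovery (FDMR) were taken either 6 hr after the occluder came off, at 11 days of age (FDMR 6 hr), or 24 hr after it came off, at 12 days of age (FDMR 24 hr). The protocol gives 10 days of occluder wear and the sample characteristics give 7 days. FDM minus control asks what differed after long form deprivation, and the later arrays ask what differed during recovery from it. Retinal layers were not separated from RPE and choroid, and 1 pool per group leaves no spread between animals, so no test was possible and every difference below is between 2 arrays.

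Ganglion cells are the output neurons of the retina. Their axons run through the nerve fibre layer into the optic nerve, and in birds oligodendrocytes myelinate part of this course inside the eye. Neurofilaments fill and widen these axons, stathmins and GAP43 serve growth and repair of the growth cone, and POU4F and ELAVL proteins set and maintain neuronal gene expression. In bulk tissue, fewer ganglion cells and less RNA per ganglion cell cannot be told apart.

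The deposited values are log2 expression after the authors' RMA, and the median over all probe sets was between 5.73 and 5.74 on the 4 arrays. A gene's value is the median of its probe sets, and a gene is called dim where its mean over the arrays is not above 6.28, a limit that 60% of the probe sets do not pass. Among the 8 measured genes, 7 were above this limit and none lay on the Z chromosome. Added hybridisation controls differed in size by 0.17 to 0.31 between FDM and control and by 0.01 to 0.21 between FDMR 24 hr and FDMR 6 hr, but by 0.51 to 2.995 in the other pairs of arrays. Poly-A controls, which are added before labelling, exceeded their control array values by 0.58 to 0.70 on the FDM array. FDMR 6 hr minus FDM was between -2.09 and -1.04 for these controls, and FDMR 24 hr minus FDM between -2.44 and -1.03. The gap between the 3′ and 5′ probe sets of β-actin was 2.54, 3.72, 2.39 and 2.85 on the control, FDM, FDMR 6 hr and FDMR 24 hr arrays. The 3′ GAPDH controls, as the mean of 2 probe sets, had 14.145, 13.995, 14.025 and 14.065 on the same arrays. The 5′ GAPDH control had 13.95, 13.79, 13.87 and 13.86, so that GAPDH had no widening of this size on the FDM array. The labels give male chicks for all groups. HINTW, which lies on the W chromosome that only females carry, had a level of 9.36 on the control array and 5.52, 5.37 and 5.34 on the FDM, FDMR 6 hr and FDMR 24 hr arrays. The 269 Z-linked genes above the dim limit had a median of 0.46 for FDM minus control. The control array therefore goes against its label in this respect, and only the comparisons of FDMR 24 hr or FDMR 6 hr with FDM, and of FDMR 24 hr with FDMR 6 hr, leave it out.

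The ganglion cell and axon genes did not move as one group. NEFL, NEFM and THY1 were 2.71-, 3.53- and 3.41-fold lower on the FDM array than on the control array and stood higher on each later array. For NEFM this holds for the median of its probe sets. The mean of its 3 probe sets gave a log2 difference of -0.90 for FDM minus control and its probe set of highest mean gave -0.76, both short of 1. SNCG and STMN2 were lowest on the control array, and RBPMS2, ELAVL4 and GAP43 had differences of -0.25, -0.16 and -0.05 for FDM minus control. All of these values rest on 1 array per group. As the only error at hand, the differences of probe sets that read the same gene scattered with an SD of 0.43 for FDM minus control, 0.30 for FDMR 6 hr minus FDM, 0.37 for FDMR 24 hr minus FDM, 0.26 for FDMR 24 hr minus FDMR 6 hr, 0.29 for FDMR 6 hr minus control and 0.31 for FDMR 24 hr minus control (3081 genes). This SD does not hold the spread between chicks.

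**Figure D1:**
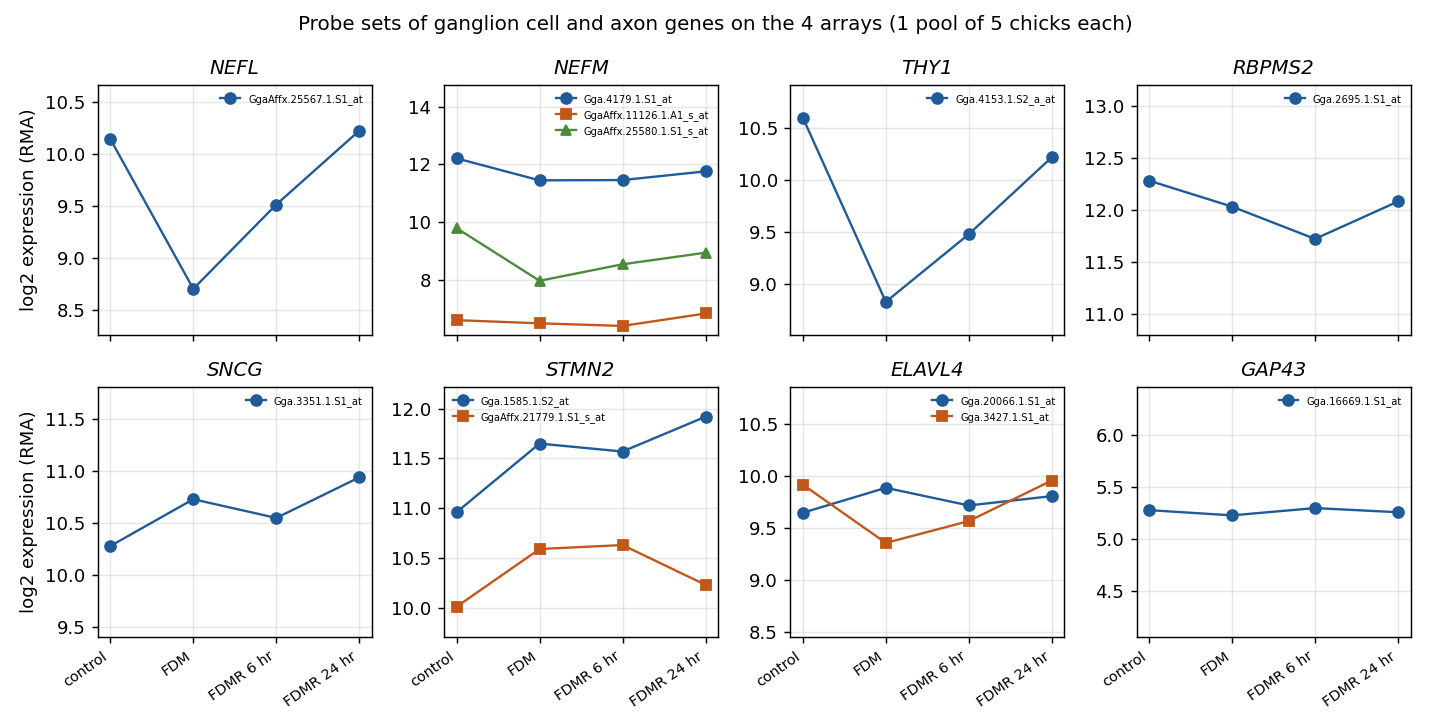
Deposited log2 expression (vertical axis, RMA) of each of the 12 probe sets on the control, FDM, FDMR 6 hr and FDMR 24 hr arrays (horizontal axis, 1 pool of 5 chicks each), with 1 panel per gene and vertical axes that differ between panels. NEFL and THY1 have their lowest level on the FDM array, at 8.70 and 8.83, while GAP43 stays between 5.23 and 5.30.

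NEFL encodes the light neurofilament subunit, the core of the neurofilaments that set axon calibre. Its single probe set had log2 levels of 10.14, 8.70, 9.51 and 10.22 on the control, FDM, FDMR 6 hr and FDMR 24 hr arrays. The FDM array was thus the lowest, and the FDMR 24 hr and control arrays were the closest pair. The log2 difference was -1.44 for FDM minus control, and 83 of all genes were as low or lower in this comparison (0.636%). It was 0.81 for FDMR 6 hr minus FDM, 0.71 for FDMR 24 hr minus FDMR 6 hr and 1.52 for FDMR 24 hr minus FDM. Over this 24 hr of recovery NEFL was 2.87-fold higher, and 16 genes were as high or higher (0.123%). FDMR 24 hr minus control was 0.08, which is less than the SD between probe sets, whereas the other neighbours in the order of levels lay further apart than that SD.

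NEFM encodes the medium neurofilament subunit, which assembles with NEFL and carries a long phosphorylated tail. It was read by 3 probe sets that did not give the same size of difference. The median was set by the probe set with the widest range, with log2 levels of 9.80, 7.98, 8.55 and 8.95 on the control, FDM, FDMR 6 hr and FDMR 24 hr arrays. The probe set whose name carries no mark for shared transcripts had 12.21, 11.45, 11.46 and 11.76 on the same arrays, and the remaining probe set had 6.62, 6.51, 6.42 and 6.85. All 3 were lower on the FDM array than on the control array, with differences of -1.82, -0.76 and -0.11, and all 3 were higher at FDMR 24 hr than at FDMR 6 hr, by 0.40, 0.30 and 0.43.

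As the median of its probe sets, NEFM had a difference of -1.82 for FDM minus control, where 35 genes were as low or lower (0.268%). It was 0.57 for FDMR 6 hr minus FDM and 0.97 for FDMR 24 hr minus FDM, against 0.01 and 0.31 with the probe set of highest mean. Unlike NEFL, it was still below the control array after 24 hr of recovery, at -0.85 for FDMR 24 hr minus control, with 164 genes as low or lower (1.26%). The probe sets disagreed here, with -0.45 and 0.23 for the other 2. For FDMR 6 hr minus control NEFM was at -1.25 as the median and at -0.75 with the probe set of highest mean.

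THY1 encodes a small GPI-anchored surface protein of neurons that is widely used to mark ganglion cells in rodents. Its single probe set, whose name marks it as reading several transcripts of the gene, had log2 levels of 10.60, 8.83, 9.48 and 10.22 on the control, FDM, FDMR 6 hr and FDMR 24 hr arrays. The FDM array was again the lowest, and all neighbours in the order of levels were further apart than the SD between probe sets. The difference was -1.77 for FDM minus control, with 39 genes as low or lower (0.299%), and 1.39 for FDMR 24 hr minus FDM, with 30 genes as high or higher (0.23%). THY1 was 2.62-fold higher over the 24 hr of recovery. For FDMR 24 hr minus FDMR 6 hr it stood at 0.74 and for FDMR 24 hr minus control at -0.38.

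RBPMS2 encodes an RNA-binding protein that, with its paralog RBPMS, marks ganglion cells of the vertebrate retina. Its log2 level was 12.28, 12.03, 11.72 and 12.08 on the control, FDM, FDMR 6 hr and FDMR 24 hr arrays, and here the FDMR 6 hr array was the lowest. The difference was -0.25 for FDM minus control, -0.31 for FDMR 6 hr minus FDM, 0.36 for FDMR 24 hr minus FDMR 6 hr and -0.20 for FDMR 24 hr minus control. Only the gap between FDM and FDMR 6 hr exceeded the SD between probe sets among neighbours in the order of levels.

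SNCG encodes γ-synuclein, a protein abundant in ganglion cells and their axons in mammals. Its log2 level was 10.28, 10.73, 10.55 and 10.94 on the control, FDM, FDMR 6 hr and FDMR 24 hr arrays, so that the control array was the lowest and FDMR 24 hr the highest. The difference was 0.45 for FDM minus control, -0.18 for FDMR 6 hr minus FDM and 0.39 for FDMR 24 hr minus FDMR 6 hr. FDMR 24 hr minus control was 0.66, or 1.58-fold, with 270 of all genes as high or higher (2.07%). No pair of neighbours in its order of levels lay further apart than the SD between probe sets.

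STMN2 encodes stathmin 2, a microtubule regulator of growing and regenerating axons. Both of its probe sets were lowest on the control array. The first had log2 levels of 10.96, 11.65, 11.57 and 11.92 on the control, FDM, FDMR 6 hr and FDMR 24 hr arrays, and the second, marked for shared transcripts, had 10.01, 10.59, 10.63 and 10.23. FDM minus control was 0.69 and 0.58. From FDMR 6 hr on they parted, with 0.35 and -0.40 for FDMR 24 hr minus FDMR 6 hr, so that the median of -0.03 for this comparison describes neither.

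ELAVL4 encodes HuD, a neuronal RNA-binding protein that stabilises messages of axon growth, among them that of GAP43, and that amacrine cells make as well. One probe set had log2 levels of 9.65, 9.89, 9.72 and 9.81 on the control, FDM, FDMR 6 hr and FDMR 24 hr arrays. The other, built on a current RefSeq transcript of the gene, had 9.92, 9.36, 9.57 and 9.96. They moved in opposite directions for FDM minus control, at 0.24 and -0.56, and for FDMR 24 hr minus FDM, at -0.08 and 0.60. No direction can be given for ELAVL4 in these comparisons.

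GAP43 encodes a growth cone protein that is made during axon growth and again after axon injury. It was the only measured gene of the list below the dim limit, with log2 levels of 5.28, 5.23, 5.30 and 5.26 on the control, FDM, FDMR 6 hr and FDMR 24 hr arrays. The 4 levels do not separate the arrays, and at this signal a difference could have gone undetected.

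POU4F2, a close relative of the unmeasured POU4F1 and POU4F3 and a regulator of ganglion cell differentiation in mice, had log2 levels of 6.52, 6.39, 6.49 and 6.61 on the control, FDM, FDMR 6 hr and FDMR 24 hr arrays. Its differences were -0.13 for FDM minus control and 0.22 for FDMR 24 hr minus FDM. These levels lie just above the dim limit.

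Set beside all genes, 3 of the 8 measured genes (NEFL, NEFM and THY1) were lower by at least 1 on the FDM array than on the control array, against 2.31% of the 13051 genes. Among genes above the dim limit these were 3 of 7, against 4.57% of 6101. None was higher by at least 1, against 2.55% of all genes. At a difference of 0.5 the 3 genes were still the only ones lower, against 9.85% of all genes, and STMN2 was higher, against 9.81%. The differences ran between -1.82 and 0.64 with a median of -0.21, and 6 of 8 were below 0, against a median of 0.00 and 49.5% below 0 over all genes. This median and the differences of RBPMS2, ELAVL4 and GAP43 lay within the SD between probe sets of 0.43. Of the 12 probe sets, 3 were lower by at least 1, against 2.83% of all probe sets with 1 gene. The THY1 probe set and 2 of the 3 NEFM probe sets are marked for several or shared transcripts. Without such probe sets 7 genes were left and NEFL alone was lower by at least 1.

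**Figure D2:**
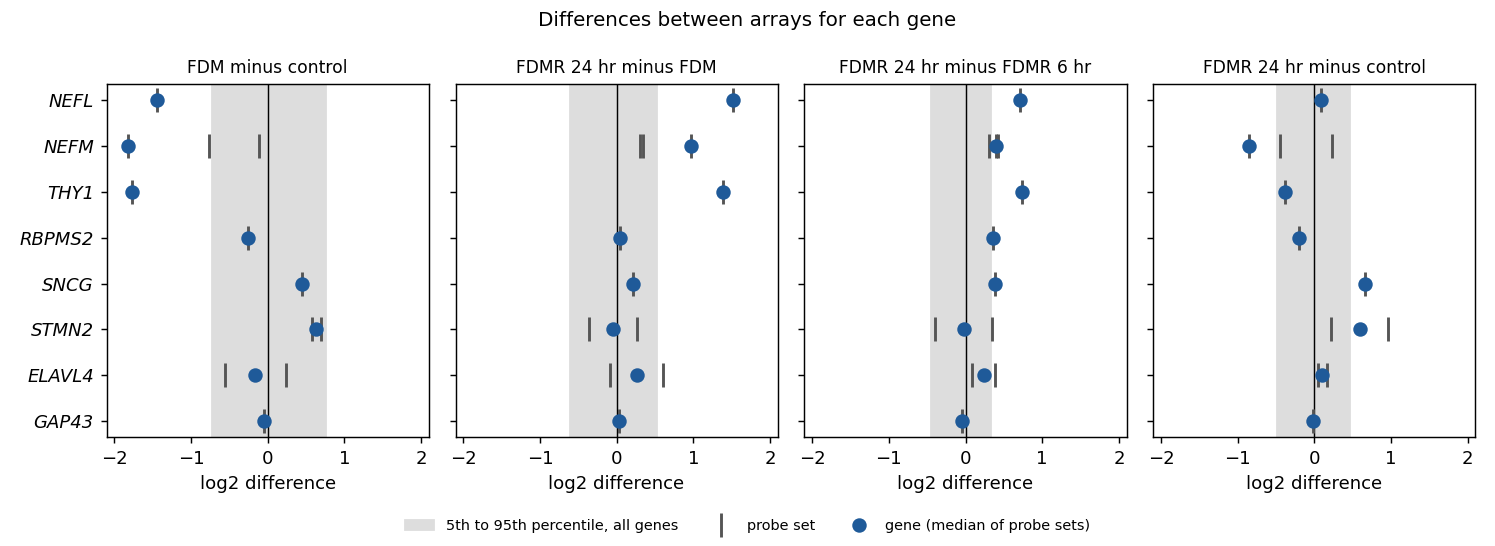
Log2 difference (horizontal axis) of each gene (vertical axis) in 4 comparisons, with circles for the median of a gene's probe sets, ticks for single probe sets and grey bands for the 5th to 95th percentile of all 13051 genes. NEFL, NEFM and THY1 lie left of the band for FDM minus control and right of it for FDMR 24 hr minus FDM, while the 2 ticks of ELAVL4 lie on both sides of 0 in each of these panels.

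**Figure D3:**
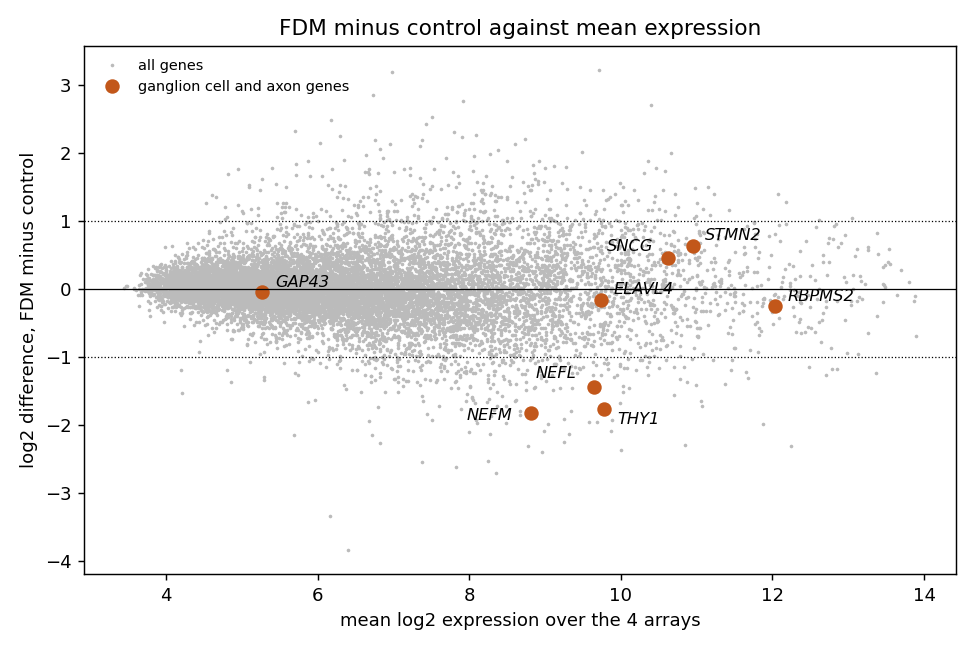
FDM minus control as a log2 difference (vertical axis) against mean log2 expression over the 4 arrays (horizontal axis), with grey points for all genes, orange points for the 8 measured genes and dotted lines at differences of -1 and 1. NEFL, NEFM and THY1 lie below the lower line, and GAP43 lies among the dim genes near 0.

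For FDMR 6 hr minus FDM none of the 8 genes was higher or lower by at least 1, against 0.414% and 0.329% of all genes. At 0.5, 3 were higher and none was lower, against 3.86% and 3.06%. The median was 0.05, and 3 of 8 were below 0, against 48.5%. NEFL, THY1 and NEFM had the highest differences, at 0.81, 0.65 and 0.57, and RBPMS2 the lowest, at -0.31. For NEFM this is the median of its probe sets. Its probe set of highest mean was at 0.01 and that of lowest mean at -0.09, both short of 0.5.

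Over 24 hr of recovery, NEFL and THY1 were higher by at least 1 on the FDMR 24 hr array than on the FDM array, 2 of 8 against 0.881% of all genes, and none was lower by at least 1, against 1.37%. At 0.5, 3 were higher and none was lower, against 5.76% and 7.5%. NEFM, at 0.97 as the median, lay just short of 1. Its probe set of highest mean was at 0.31 and that of lowest mean at 0.34, both short of 0.5. The median was 0.24, against -0.01 over all genes, and STMN2, at -0.05, was the only 1 of 8 below 0, against 50.6% of all genes. This median and the differences of SNCG, RBPMS2, GAP43, ELAVL4 and STMN2 lay within the SD between probe sets of 0.37. The probe sets of STMN2 were at 0.27 and -0.36 and those of ELAVL4 at -0.08 and 0.60, so that the count does not show a rise of the whole list. This comparison shares the FDM array with FDM minus control, so that a low value on that array enters both.

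The comparison of FDMR 24 hr with FDMR 6 hr uses neither the control nor the FDM array. None of the genes was higher or lower by at least 1, against 0.169% and 0.498% of all genes. At 0.5, THY1 and NEFL were higher, 2 of 8 against 1.75%, and none was lower, against 4.08%. The median was 0.38, against -0.01 over all genes, and 2 of 8 genes were below 0, against 51.6% of all genes. THY1 stood at 0.74, NEFL at 0.71, NEFM at 0.40, SNCG at 0.39, RBPMS2 at 0.36 and ELAVL4 at 0.24. The first 5 of these lay above the 95th percentile of all genes, which was 0.33. The hybridisation controls of these 2 arrays were the closest of all pairs.

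Against the control array, NEFM and THY1 were lower by at least 1 at FDMR 6 hr, at -1.25 and -1.12, 2 of 8 against 0.659% of all genes. With the mean of the probe sets or the probe set of highest mean 1 of 8 was counted, and without probe sets marked for several or shared transcripts 0 of 7. None was higher by at least 1 in this comparison, against 0.996%. At 0.5, NEFL and RBPMS2 joined them to make 4 lower, against 4.67%, and STMN2 was the 1 higher, against 6.55%. Of the 8 genes 5 were below 0, against 49.5%. At FDMR 24 hr none was higher or lower by at least 1, against 0.529% and 0.797%. There SNCG and STMN2 were the 2 higher by at least 0.5, against 4.24%, and NEFM the 1 lower, against 4.77%. The median was 0.03, and 4 of 8 were below 0, against 52.1%. The extremes were NEFM at -0.85 and SNCG at 0.66. The NEFM probe set of highest mean was at -0.45 and that of lowest mean at 0.23. Over the 4 arrays, the FDM array was the lowest for 5 of 8 genes, against 30% of all genes. For 2 of these, GAP43 and ELAVL4, the gap to the next array was 0.03 and 0.02 and within the SD between probe sets, which leaves NEFL, NEFM and THY1. For NEFM this holds for the median only. Its probe set of highest mean had 11.45 at FDM and 11.46 at FDMR 6 hr. Its probe set of lowest mean was lowest at FDMR 6 hr, with 6.42 against 6.51 at FDM. Further, 4 of 8 genes (NEFL, NEFM, THY1 and ELAVL4) stood in the order FDM, FDMR 6 hr, FDMR 24 hr from low to high, against 22.4%. This count uses medians of probe sets. The ELAVL4 probe sets were at -0.17 and 0.21 for FDMR 6 hr minus FDM, so that its order depends on the probe set. The NEFM probe set of lowest mean, at -0.09, did not keep the order either. The control array was the lowest for SNCG and STMN2, 2 of 8 against 27.9%.

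The genes whose profile over the 4 arrays was nearest to those of NEFL, NEFM and THY1 were searched among 6100 other genes above the dim limit, by the Euclidean distance of values centred on each gene's mean. KCND2, a potassium channel of neuronal cell bodies and dendrites, was nearest to NEFL at a distance of 0.04, with log2 levels of 9.37, 7.91, 8.75 and 9.41 on the control, FDM, FDMR 6 hr and FDMR 24 hr arrays. STXBP5L, a regulator of vesicle release, and EDF1 followed at 0.20 and 0.21. Nearest to NEFM were TSPAN7, AP3B2, a neuronal subunit of an adaptor complex, and SIX3, a transcription factor of eye development, at 0.13, 0.18 and 0.24. Nearest to THY1 were AP2M1, a subunit of the clathrin adaptor, IGF1R, the receptor of insulin-like growth factor 1, and PLXNA2, a receptor of axon guidance, at 0.11, 0.15 and 0.17. Over 4 arrays a short distance describes a likeness only. The NEFM profile was the median of 3 probe sets that differed in pattern, so that its nearest genes may depend on the probe set. The probe sets of AP2M1 spread between -2.76 and -0.60 for FDM minus control, those of TSPAN7 between -2.20 and 0.04, those of EDF1 between -2.16 and -0.12 and those of PLXNA2 between -2.66 and -0.62, so that the values of these 4 depend on the choice of probe set. The other 5 have 1 probe set each.

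Relatives of the listed genes were mostly lower on the FDM array than on the control array, 8 of 9 measured, with a median of -0.22. This median and the differences of RBPMS, STMN1, STMN4, POU4F2 and ELAVL1 lay within the SD between probe sets of 0.43 for FDM minus control. As given above, 49.5% of all genes were below 0 and 2.31% lower by at least 1 in this comparison (4.57% among genes above the dim limit), and the counts of the following groups stand against these shares. Relatives lower by at least 1 were NEFH and STMN3, 2 of 9. NEFH, the heavy neurofilament subunit, had log2 levels of 10.63, 9.34, 9.76 and 9.93 on the control, FDM, FDMR 6 hr and FDMR 24 hr arrays, and both STMN3 probe sets were lower at FDM, at -1.72 and -1.71. All 3 neurofilament subunits were therefore lower at FDM. SNCB, β-synuclein, was at -0.95, opposite to SNCG, and the stathmins STMN1, STMN3 and STMN4 were below 0 while STMN2 was above it.

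Of 13 measured genes of axon growth, 12 were below 0 for FDM minus control, with a median of -0.69, and 4 were lower by at least 1. DPYSL2, which carries tubulin to growing axon tips, had log2 levels of 12.67, 10.68, 12.02 and 12.15 on the control, FDM, FDMR 6 hr and FDMR 24 hr arrays. Its relative DPYSL3 had a difference of -1.11. NCAM1, an adhesion molecule, and DCX, a microtubule protein of young neurons, were at -1.17 and -1.63 as medians, but at -0.52 and -0.24 by their probe sets of highest mean. DCX was dim, and its probe sets ran from -1.63 to 0.34, so that its direction depends on the probe set. For FDMR 24 hr minus FDM 10 of 13 were above 0, against 48.1% of all genes, with a median of 0.52. A low value on the FDM array enters this comparison too.

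Microtubule genes of neurons had 9 of 10 measured members below 0 for FDM minus control, with a median of -0.71. With the probe set of highest mean for each gene this median was -0.28. TUBB3, the neuronal β-tubulin that is used to stain ganglion cells and their axons, was the only one lower by at least 1, with log2 levels of 8.18, 6.60, 7.04 and 7.66 on the control, FDM, FDMR 6 hr and FDMR 24 hr arrays. All 10 were below 0 for FDMR 24 hr minus control, against 52.1% of all genes, with a median of -0.41. Of these, TUBA1A, TUBB2A, TUBB2B, MAP1B and UCHL1 lay within the SD between probe sets of 0.31. MAP1A, MAP1B and UCHL1 were dim. MAPT, the axonal protein tau, was at -0.92 in that comparison and MAP2, its dendritic counterpart, at -0.81.

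Among 14 measured transcription factors of ganglion cells, 9 were below 0 for FDM minus control, with a median of -0.15. EBF3 was the only one past 1, at -2.53 as a median of 3 probe sets, while its probe set of highest mean was at 0.11, so that its direction depends on the probe set. ISL1, a homeodomain factor of ganglion and bipolar cells that lies on the Z chromosome, had log2 levels of 9.96, 9.66, 9.96 and 10.56 on the control, FDM, FDMR 6 hr and FDMR 24 hr arrays.

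Other genes of ganglion cells were split, with 6 of 11 above 0 and 5 below for FDM minus control. Of those above 0, NRN1, SLC17A6 and OPN4 were dim, CHRNA6 and CHRNB3 lie on the Z chromosome, and CHRNB4 was at 0.765. SPP1, below 0, was dim too, so that this split rests in part on dim and Z-linked genes. CALB2, or calretinin, a calcium-binding protein of ganglion and amacrine cells, had log2 levels of 12.09, 10.78, 11.80 and 12.02 on the control, FDM, FDMR 6 hr and FDMR 24 hr arrays. EFNB1, an ephrin of axon guidance, was at -1.63 and ADCYAP1, the peptide PACAP, at -1.07 for FDM minus control. EFNB1 was at -0.79 by its probe set of highest mean, and ADCYAP1 at -0.86. CHRNA6, a nicotinic receptor subunit, was the only one higher by at least 1, at 1.33. It lies on the Z chromosome, whose genes were higher as a whole against the control array.

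**Figure D4:**
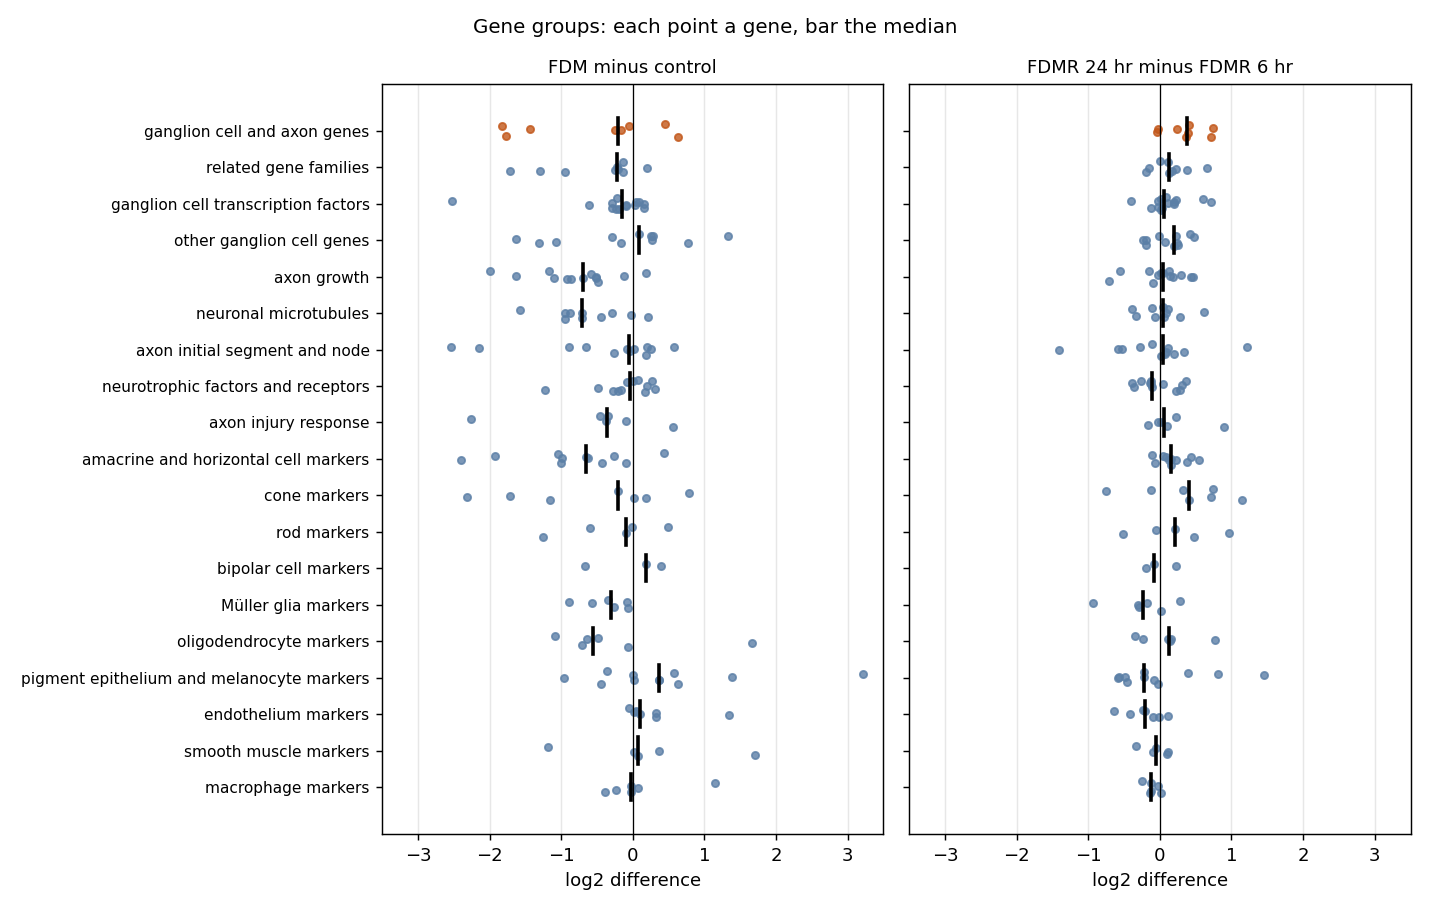
Log2 difference (horizontal axis) of each measured gene (points) in the ganglion cell and axon genes (orange) and in the other gene groups (blue, rows), with black bars for medians, for FDM minus control and FDMR 24 hr minus FDMR 6 hr. The left panel has medians of -0.69 for axon growth and -0.65 for amacrine and horizontal cell markers, beside -0.21 for the ganglion cell and axon genes, and the right panel has 0.38 for the ganglion cell and axon genes, 0.40 for cone markers and 0.15 for amacrine and horizontal cell markers.

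Markers of other cells of the tissue also moved between the arrays. For FDM minus control, 10 of 11 markers of amacrine and horizontal cells were below 0, with a median of -0.65, and 4 were lower by at least 1. These were TFAP2B, a transcription factor, at -2.40, the glycine transporter SLC6A9 at -1.93, PAX6, which ganglion cells express too, at -1.05 and SLC32A1, the vesicular transporter of GABA and glycine, at -1.01. The log2 of the summed signal of this list was 13.89, 12.98, 13.44 and 13.61 on the control, FDM, FDMR 6 hr and FDMR 24 hr arrays. That of the 8 ganglion cell and axon genes was 13.57, 13.30, 13.25 and 13.59. RBPMS2, the brightest of these 8 on each array, with log2 levels of 12.28, 12.03, 11.72 and 12.08, weighs most in this sum. All 6 Müller glia markers were below 0, with a median of -0.31 and SOX9 and GLUL at -0.89 and -0.57. The others, CA2, RLBP1, SLC1A3 and SOX2, were at -0.35, -0.26, -0.08 and -0.07. These and the median lay within the SD between probe sets of 0.43. Of 6 oligodendrocyte markers 5 were below 0, with a median of -0.56, or -0.31 with the probe set of highest mean. CNP was the 1 lower by at least 1, at -1.09. MOG, which was dim, was the 1 higher by at least 1, at 1.66, against 2.55% of all genes. Of 7 cone markers 4 were below 0 and 3 lower by at least 1, with a median of -0.21 for the list. Lower by at least 1 were the opsins OPN1LW and OPN2SW at -2.31 and -1.72 and the arrestin ARR3 at -1.15. The ARR3 probe sets differed, at -1.83 and -0.47. GNAT2 was also below 0, at -0.21, while PDE6C, PDE6H and CNGA3 were above 0, at 0.79, 0.18 and 0.01. The log2 summed signal of the cone list was 14.57, 13.71, 14.19 and 14.21 on the 4 arrays in the same order. Pigment epithelium and melanocyte markers were above 0 in 7 of 11 cases, with a median of 0.36. This median lay within the SD between probe sets of 0.43. So did BEST1 and, among those above 0, RGR, TTR and LRAT, at 0.36, 0.365 and 0.01. The log2 summed signal of the pigment list was 14.19, 14.66, 14.61 and 14.33 on the 4 arrays in the same order. The pigment cell genes MLANA and TYRP1, both on the Z chromosome, were at 3.22 and 1.39. The 3 genes of this list below 0 were PMEL, MITF and BEST1, at -0.96, -0.45 and -0.355, none of them on the Z chromosome.

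The remaining lists had FDM minus control medians nearer to 0. They were -0.09 for 5 rod markers, 0.18 for 3 bipolar cell markers, 0.10 for 7 endothelium markers, 0.07 for 5 smooth muscle markers and -0.03 for 6 macrophage markers. Above the dim limit were 3 of the rod, 2 of the bipolar, 1 of the endothelium, 2 of the smooth muscle and 4 of the macrophage markers. The endothelium and smooth muscle medians thus rest mostly on dim genes and do not show that these cell types were unchanged. The bipolar median turned to -0.37 and the macrophage median to 0.58 with the probe set of highest mean. Single genes stood apart in these lists. MAFA, a rod factor in birds, was at -1.26, the endothelial cadherin CDH5 at 1.35, the smooth muscle genes MYH11 and TAGLN at 1.71 and -1.18, the leukocyte gene LAPTM5 at 1.15 and the bipolar cell genes VSX1 and TRPM1 at -0.67 and 0.40.

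Over recovery, FDMR 24 hr minus FDM had a median of 0.59 for cone markers, 0.52 for amacrine and horizontal cell markers, 0.23 for Müller glia markers, 0.23 for oligodendrocyte markers and -0.34 for pigment epithelium and melanocyte markers, beside 0.24 for the ganglion cell and axon genes. For FDMR 24 hr minus FDMR 6 hr the medians were 0.40 for cone markers, with PDE6H, a cone phosphodiesterase subunit, at 1.14, and 0.15 for amacrine and horizontal cell markers, of which 9 of 11 were above 0, against 46.6% of all genes. They were -0.24 for Müller glia, 0.13 for oligodendrocyte and -0.22 for pigment epithelium and melanocyte markers, beside 0.38 for the ganglion cell and axon genes. The median of the cone markers was thus above that of the ganglion cell and axon genes in both recovery comparisons. The lowest deposited value was 3.33, 3.36, 3.32 and 3.34 on the control, FDM, FDMR 6 hr and FDMR 24 hr arrays. A level above 0 therefore does not show that a marker gene was detected. The part of these shifts, and of the wider β-actin gap and the higher poly-A controls on the FDM array, in the lower values of NEFL, NEFM and THY1 was not tested.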

How the data were processed

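RNA pooled from the retina, RPE and choroid of 5 chicks per group was hybridised to 1 Affymetrix chicken array per group. The authors summarised the arrays with RMA in Affymetrix Expression Console, and the deposited values are log2 expression with 2 decimals, each for 1 probe set. MAS5 also appears in the processing notes of the submitters. The methods describe preprocessing of these arrays both on their own and jointly with induction arrays from an earlier study, and analysis of the joint values. Which of these the deposited values are was not settled, and no further normalisation was applied.

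Gene names came from the annotation of the platform, which gave exactly 1 symbol for 27178 of 38535 probe sets, several for 177 and none for 11180. A gene's value was the median of its probe sets. RefSeq for GRCg7b, which held 12872 of the 13051 genes by Entrez ID, served for names and the Z chromosome only. Differences are the later or treated array minus the earlier or control array, and genes were counted at a log2 difference of 1. With 1 array per group, no test was run, and the precision is limited by the number of arrays. The code for counts and medians was checked on simulated arrays with known differences, which says nothing about the counts reported.

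The genes and gene groups were chosen with earlier results of these data known. Named are all listed genes, the members of each other group with a difference of at least 1 for FDM minus control or FDMR 24 hr minus FDMR 6 hr (otherwise the 2 with the largest FDM minus control), and the 3 nearest profiles for each of the 3 listed genes with the widest range. Further genes were named after their values were seen: POU4F2, POU4F1L, HINTW, SNCB, STMN1, STMN4, ISL1, MAPT, MAP2, CHRNB3, JUN, HSPB1, GADD45A, ATF3, NTRK3 and CNTNAP1. So were NRN1, SLC17A6, OPN4, SPP1, CHRNB4, PMEL, MITF, BEST1, SCN2A and CNTN1. The same holds for PDE6C, CNGA3, GNAT2, RLBP1, SLC1A3, SOX2, CA2, RBPMS, ELAVL1 and the GAPDH controls. It also holds for MAP1A, MAP1B, UCHL1, TUBA1A, TUBB2A and TUBB2B. NTRK2, CNTF, CNTFR, LIFR, IL6ST, GDNF, ECEL1, RGR, TTR and LRAT were named in the same way. Alternatives were quantile normalisation, centring each array, averaging a gene's probe sets, taking its probe set of highest mean, omitting probe sets marked for shared transcripts, a difference of 0.5, and the limit on dim genes. The computations used Python 3.11.15, NumPy 2.4.6 and pandas 2.3.3, and the plots used Matplotlib 3.10.9.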

Additional observations from a re-analysis of the deposited data

How the results depend on the processing

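No alternative turned the direction of a listed gene that was past a difference of 1. For NEFL and THY1, with 1 probe set each, averaging or choosing probe sets could not change the value. NEFM, with 3 probe sets, moved from -1.82 to -0.90 with their mean and to -0.76 with the probe set of highest mean, for FDM minus control. The array medians were already between 5.73 and 5.74, so that centring could change little. Quantile normalisation, centring of the arrays and the limit on dim genes left every count of the ganglion cell and axon genes within 1.5 times and every median within the SD between probe sets. At a difference of 0.5 in place of 1, the genes counted as higher were 1 for FDM minus control, 3 for FDMR 6 hr minus FDM, 2 for FDMR 24 hr minus FDMR 6 hr, 1 for FDMR 6 hr minus control and 2 for FDMR 24 hr minus control, and those counted as lower were 4 for FDMR 6 hr minus control and 1 for FDMR 24 hr minus control. Without probe sets marked for shared transcripts, which left 7 genes and dropped THY1, 1 gene was lower for FDM minus control, 1 was higher for FDMR 24 hr minus FDM and 0 were lower for FDMR 6 hr minus control. With the mean of the probe sets, and likewise with the probe set of highest mean, 1 was lower for FDMR 6 hr minus control. Among other genes named, EBF3 turned to 0.11 for FDM minus control and to -0.31 for FDMR 24 hr minus FDM with its probe set of highest mean. The cause was not tested. No replicate could be left out, and the arrays carry no pairing. No paired analysis was possible because each group has 1 array.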

Other observations

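Genes of the axon initial segment and node were mostly dim, with 5 of 12 measured genes above the limit, and had a median of -0.06 for FDM minus control. Lower by at least 1 in this comparison were NFASC and KCNA2, at -2.54 and -2.15, 2 of 12 against 2.31% of all genes. By its probe set of highest mean NFASC was at -0.68. SCN2A and CNTN1, also above the dim limit, were at 0.58 and 0.26. KCNA2, a potassium channel beside the nodes of myelinated axons, had log2 levels of 8.33, 6.18, 6.88 and 5.47 on the control, FDM, FDMR 6 hr and FDMR 24 hr arrays. It was the only gene of this list lower by at least 1 for FDMR 24 hr minus FDMR 6 hr, at -1.41, against 0.498% of all genes. NFASC, which anchors sodium channels at the initial segment, was at 1.21 in that comparison as the median of 3 probe sets and at 0.36 by its probe set of highest mean. CNTNAP1, which joins axon and myelin beside the node, was at -0.90 for FDM minus control and at 0.54 for FDMR 24 hr minus FDM. Of the oligodendrocyte markers, CNP was at -1.09 for FDM minus control. MOG, whose mean was below the dim limit, had log2 levels of 4.95, 6.61, 6.52 and 6.17 on the control, FDM, FDMR 6 hr and FDMR 24 hr arrays.

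Neurotrophic factors and their receptors had 6 of 12 measured genes below 0 for FDM minus control, with a median of -0.04. Of the 12, 6 were above the dim limit. NTRK2, CNTFR, LIFR and IL6ST, all above 0, lie on the Z chromosome, whose genes were higher as a whole against the control array. The other gene above 0 was CNTF, at 0.31, and Z-linked GDNF was at -0.16. This median thus rests in part on dim and Z-linked genes and does not show an absence of change. GFRA1, the co-receptor for GDNF, was lower on each array in the order control, FDM, FDMR 6 hr and FDMR 24 hr, with log2 levels of 9.33, 8.10, 7.57 and 7.31, and FDMR 24 hr minus control was -2.02. NTRK3, the receptor of neurotrophin 3, had 6.86, 6.37, 6.65 and 7.02 on the same arrays. Of 6 measured genes of the axon injury response, 5 were below 0 for FDM minus control, with a median of -0.36. ATF3, a transcription factor induced by axon injury, was the 1 above 0, at 0.56, and was dim. CSRP1 was at -2.26, while JUN, GADD45A and HSPB1 were at -0.34, -0.38 and -0.46. The median of this list and the differences of JUN and GADD45A lay within the SD between probe sets of 0.43. So did ECEL1, at -0.10, which was dim. CHRNB3, a nicotinic receptor subunit on the Z chromosome, was at 1.11 for FDMR 24 hr minus control, and POU4F1L, which the annotation names as a relative of POU4F1, was dim, with levels of 4.93 to 5.31.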
